A study of Saccharomyces cerevisiae with 4 samples.

Results

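The genes described here are the outermost genes of the yeast chromosome arms that carry no standard name. A systematic yeast name holds a letter for the chromosome, L or R for the arm and then a number that grows toward the chromosome end, so the 15 measured genes with the highest numbers were taken on each of the 32 nuclear arms, which gave 480 genes. Of these, 96 had a symbol that is the systematic name itself, out of 5449 measured genes of Saccharomyces cerevisiae. They came from 31 arms, with at most 7 on an arm (XIV-R) and none on VII-R. On all 32 arms the order by number was the order along the chromosome in the R64 reference table.

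RNA was measured on Affymetrix arrays in BY4742, a wild-type laboratory strain with mating type alpha, and in strains lacking SIR2, SIR3 or SIR4. Per the labels, the deletions were made by recombination with a KanMX gene, whose effect cannot be told apart from that of the deletion, and cells grew exponentially in the rich glucose medium YPD at 30 °C. Each strain was represented by 1 array. With no replicates there is no test, no p-value and no replicate check of any difference below, and the number of arrays limits the precision. Each deletion was compared with the same wild-type array, so a deviation of that array enters all 3 comparisons.

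Chromosome ends in budding yeast carry silent chromatin. Rap1 binds the telomere repeats and recruits Sir3 and Sir4, and Sir2 removes acetyl groups from histone tails, which lets Sir3 and Sir4 bind neighbouring nucleosomes. Genes close to an end can be held silent in this way, and the reach of silencing differs from end to end. The same regions hold repeated families, the Y' elements among them, and many open reading frames whose products have no assigned function and which still carry only a systematic name.

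The values are log2 levels per probe set, and a difference is the log2 level in a deletion minus that in wild type. A gene was called higher where its difference reached 1 and lower where it reached -1, which is 2-fold. Throughout, 3 values in a row stand for the SIR2, SIR3 and SIR4 deletions in that order. The background level of each array was the 95th percentile of 1746 probe sets for a different yeast, at 4.29 in wild type and at 4.32, 4.39 and 4.28 in the deletions. Where a gene lay below background on 1 side, its difference is given as a bound, computed with values raised to background. The differences of the other yeast's probe sets give an idea of the spread of dim signals, with an SD of 0.23, 0.23 and 0.24 in the 3 comparisons and extremes of -0.89 and 0.96.

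The deleted genes followed their labels. In the strain deleted for it, SIR3 differed by -4.81, while SIR2 and SIR4 were below background there, which gives bounds of -5.64 and -5.70 for their decreases. Genes of mating type differed in all 3 deletions as well. HMRA1, the a1 gene of the silent locus HMR, was below background in wild type and at 9.38, 9.01 and 9.80 in the deletions. MF(ALPHA)1, MF(ALPHA)2 and STE3, which are genes of alpha cells, were called lower in every deletion. The alpha-factor receptor gene STE2 and the a-factor genes MFA1 and MFA2 stayed within 0.56 of wild type. The part of the mating-type genes in the differences of the 96 genes was not tested.

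Most of the 96 genes were not called, and a few near the ends differed strongly. In 81 genes no deletion gave a call, and in 54 all 3 differences were under 0.5 in size. The median size of a difference was 0.28, 0.26 and 0.27, above the 0.20, 0.14 and 0.10 of all measured genes. Called higher in at least 1 deletion were 10 genes and called lower 5. Together these are 15.6% of the 96, against 3.85% of all measured genes called in at least 1 deletion. The share was 8.33% of the named genes at the same 15 places per arm and 6.70% of the unnamed genes elsewhere. In the SIR2 deletion 9 of the 96 were higher and 2 lower, against 1.45% and 1.41% of all measured genes. The SIR3 deletion had 3 higher and 5 lower, against 0.734% and 1.67%, and the SIR4 deletion had 5 higher and 2 lower, against 0.349% and 1.1%. Higher in all 3 deletions were 3 of the 96, or 3.13%, against 0.22% of all measured genes. Lower in all 3 were 2, or 2.08%, against 0.771%.

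**Figure D1:**
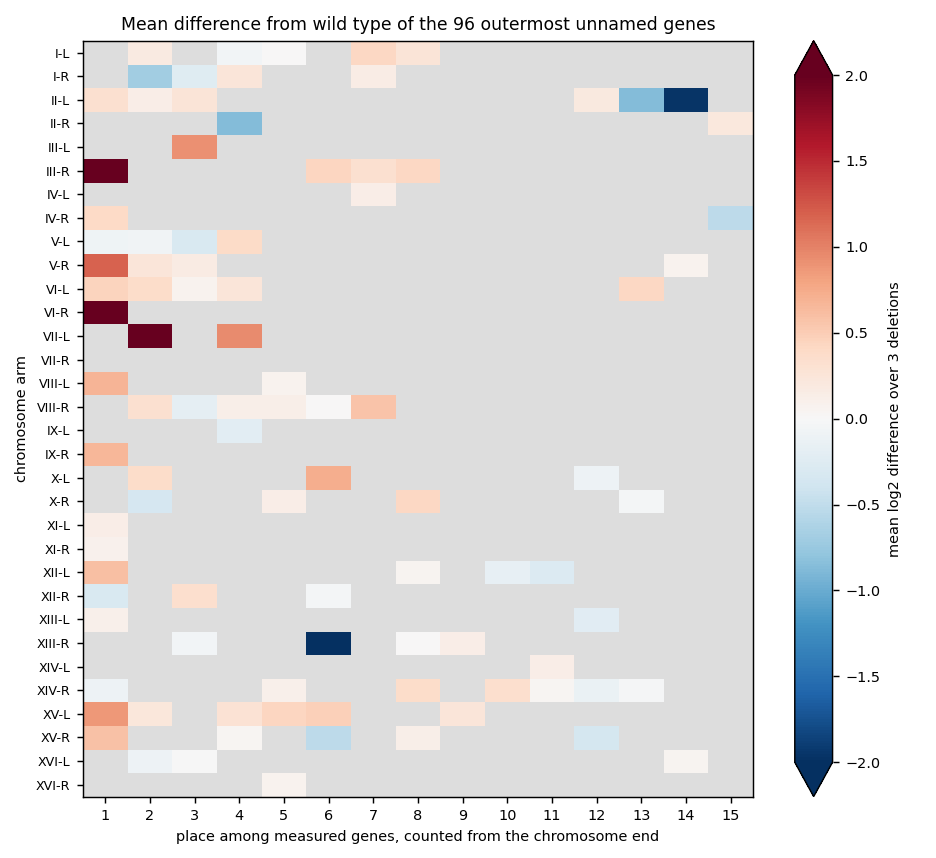
Each row is a chromosome arm and each column the place of a gene counted from the chromosome end among the 15 outermost measured genes. Coloured cells are the 96 unnamed genes, with the mean log2 difference from wild type over the 3 deletions (1 array per strain, colours end at -2 and 2), and grey cells are genes with a standard name. The strongest increases stand at place 1 or 2, on arms III-R, VI-R and VII-L.

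The genes higher in all 3 deletions were YFR057W, YGL262W and YCR108C. YFR057W, the outermost gene of VI-R and known as a gene that Sir proteins silence at its natural place, was at 2.80 in wild type and at 7.12, 7.36 and 7.59 in the deletions. The wild-type array is below background and the 3 deletion arrays lie far above it, close to each other. The increase is at least 2.83, 3.07 and 3.30 on the log2 scale.

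YGL262W, next to the outermost measured gene of VII-L, was at 2.99 in wild type and at 6.49, 5.83 and 6.70 in the deletions. It too was below background in wild type and well above it in every deletion, lowest in the SIR3 deletion. Its increase is at least 2.20, 1.54 and 2.41. YCR108C, the outermost gene of III-R, was at 5.79 in wild type and at 9.05, 7.99 and 8.53, so that here the wild-type level is above background and the differences of 3.26, 2.20 and 2.74 are measured on both sides. Its mean difference was 2.73 with an SD of 0.53 over the 3 deletion strains. The SIR2 deletion was highest and the SIR3 deletion lowest. The names of the probe sets of these 3 genes lack the suffixes that mark probes matching several sequences.

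**Figure D2:**
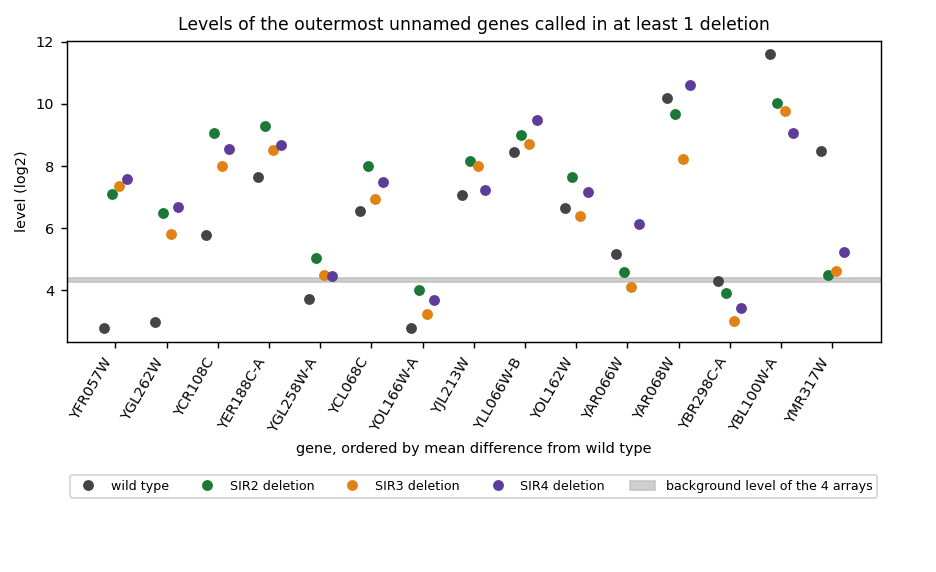
Log2 levels on the 4 arrays, 1 point per strain, are shown for the 15 genes called at least 2-fold higher or lower in at least 1 deletion, ordered by mean difference. The grey band spans the background levels of the 4 arrays, and YFR057W, YGL262W and YGL258W-A are below it in wild type alone.

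Among the 2 nearest measured genes on each side of these 3 genes, COS12 was the other gene called higher in all 3 deletions. On VI-R the next measured gene, IRC7, which encodes an enzyme of sulfur amino acid metabolism, differed by 0.62, 0.68 and 0.62, and the hexokinase gene HXK1 after it by 1.17, 0.62 and -1.28, which is a call in opposite directions in the SIR2 and SIR4 deletions. On VII-L the outermost measured gene, COS12 of the COS membrane protein family, differed by 5.58, 5.37 and 5.24, and after YGL262W the protease gene YPS5 was below background on all 4 arrays, so that no difference was measured there. The 4th measured gene of that arm, YGL258W-A, was at 3.73 in wild type and at 5.05, 4.51 and 4.45 in the deletions. It was called in the SIR2 deletion, but with wild type below background the increase there is only at least 0.76, which does not reach the limit. On III-R the next gene inward, AAD3 of the aryl alcohol dehydrogenase family, differed by 0.01, 0.02 and 0.30.

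Farther in on III-R lie 3 unnamed genes between YCR108C and HMRA1, and none was called. YCR102C, which encodes a putative oxidoreductase, was at 6.25 in wild type and at 6.64, 6.74 and 6.65 in the deletions. YCR099C was at 6.83 and at 7.23, 7.25 and 7.23. Their differences of 0.39, 0.49 and 0.40 and of 0.41, 0.42 and 0.40 were positive and alike in the deletions, and they share the single wild-type array. YCR101C lay below background on all 4 arrays.

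**Figure D3:**
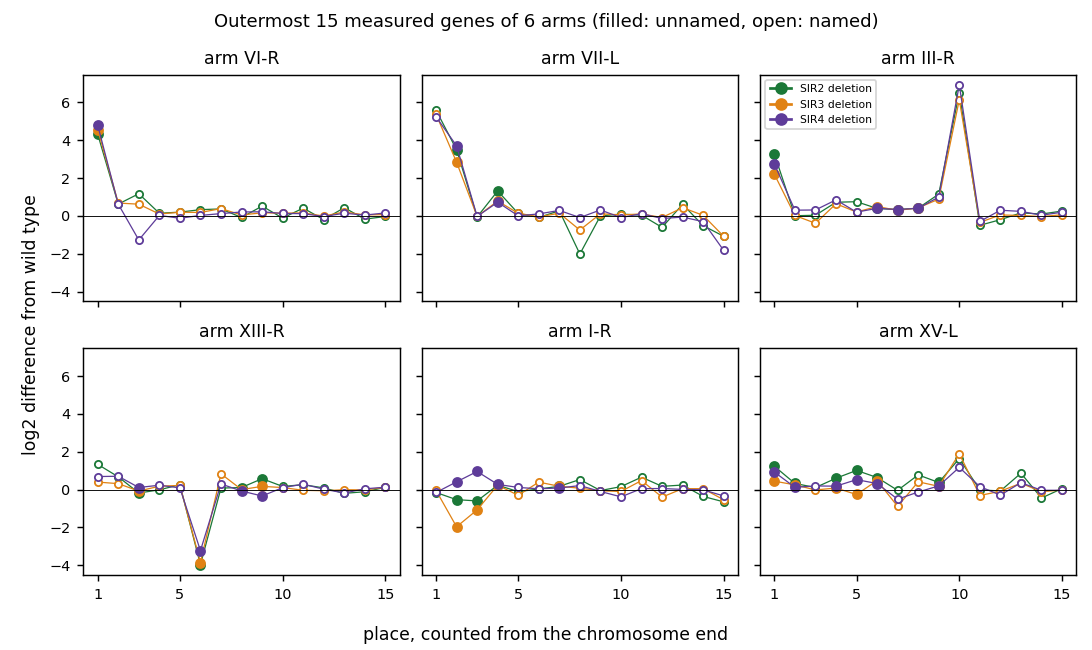
Log2 differences from wild type are shown for the 15 outermost measured genes of 6 arms in the 3 deletions, with place counted from the chromosome end. Filled points are unnamed genes and open points are genes with a standard name. The outermost genes of VI-R, VII-L and III-R stand high, the open point at place 10 of III-R is HMRA1, and the low point on XIII-R is YMR317W.

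The other called increases were smaller, and most of these genes were called in the SIR2 deletion alone. YER188C-A, the outermost measured gene of V-R, was at 7.64 in wild type and at 9.29, 8.51 and 8.68 in the deletions. Its differences of 1.65, 0.87 and 1.04 make it the gene nearest above the 2-fold limit in mean difference, at 1.19. Of the genes above background on all 4 arrays YCL068C was nearest below it, at 0.92, and YGL258W-A has a mean of at least 0.38. All 3 deletion arrays were above wild type, and the next genes inward, YER187W and YER186C, were not called, with -0.16, 0.33 and 0.55 and with 0.03, 0.13 and 0.36.

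YCL068C is the next measured gene outward of HMLALPHA1, a gene of the silent mating locus HML on III-L. It resembles part of BUD5, the bud site gene beside the MAT locus. It was at 6.55 in wild type and at 8.0, 6.94 and 7.47 in the deletions. The differences of 1.44, 0.38 and 0.92 passed the limit in the SIR2 deletion. Its probe set can match several sequences. The probe set of BUD5 itself differed by 0.09, 0.10 and -0.14.

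YJL213W, at place 6 of X-L, was at 7.07 in wild type and at 8.16, 8.0 and 7.23 in the deletions. Its differences of 1.09, 0.93 and 0.16 place the SIR4 deletion near wild type and the other deletions above both. YOL162W, which encodes a putative transporter of the allantoate permease family, was at 6.64 in wild type and at 7.66, 6.38 and 7.17. The SIR3 deletion was thus below wild type by 0.26 while the SIR2 deletion was above it by 1.01. Its neighbour and relative YOL163W, another putative transporter of this family, had differences of 0.60, 0.08 and 0.18.

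The remaining pair was called on a shared and on a dim probe set. YLL066W-B, the outermost measured gene of XII-L, was at 8.46 in wild type and at 9.01, 8.72 and 9.47 in the deletions, a difference of 1.01 in the SIR4 deletion. That probe set can match several sequences. The probe set of the gene without such a suffix gave 0.24, 0.16 and 0.22. YOL166W-A, the outermost measured gene of XV-L, was at 2.78 in wild type and at 4.01, 3.23 and 3.70, below background on all 4 arrays. Of the 10 genes called higher, 8 kept a call with values raised to background, and 3 have probe sets shared between sequences.

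Of these 10 genes, 5 were called in the SIR2 deletion alone and 1 in the SIR4 deletion alone, so that the call itself fixes where they were highest. Of the 4 called in more than 1 deletion, 2 had their highest level without SIR2 and 2 without SIR4. Compared directly, without the wild-type array, the SIR2 deletion was above the SIR3 deletion in 62 of the 96 genes, or 64.6%, with a median difference of 0.11. Over all measured genes the share was 51.2% and the median 0.00, but the share was 58.1% of the named genes at the same 15 places per arm and 60.5% of the unnamed genes elsewhere. The SIR2 deletion was above the SIR4 deletion in 54 of the 96, or 56.3%, against 44.8% of all genes, and the SIR4 deletion was above the SIR3 deletion in 54, or 56.3%, against 56.4%.

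The genes lower in all 3 deletions were YMR317W and YBL100W-A. YMR317W, at place 6 of XIII-R, was at 8.47 in wild type and at 4.50, 4.62 and 5.24 in the deletions. The SIR2 and SIR3 deletion arrays lie just above background and the SIR4 deletion array farther above it. The mean difference of -3.68 is a 12.8-fold lower level. The genes on either side, the alcohol dehydrogenase gene ADH6 and the DIA1 gene, differed by 0.26, 0.22 and 0.09 and by 0.08, 0.83 and 0.30.

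YBL100W-A, at place 14 of II-L, belongs to a Ty retrotransposon and encodes its Gag protein. It was at 11.59 in wild type and at 10.04, 9.76 and 9.07 in the deletions, lowest in the SIR4 deletion. YBL100W-B, which encodes the Gag-Pol protein of the same element, was at 13.02 and at 12.16, 12.04 and 12.28, and its differences of -0.87, -0.98 and -0.74 did not reach the limit. Each of these probe sets can match several sequences, and Ty elements occur at many places in the genome, so these levels cannot be placed at II-L.

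The remaining genes called lower were called in the SIR3 deletion alone. YAR068W, at place 2 of I-R, was at 10.19 in wild type and at 9.66, 8.23 and 10.60 in the deletions. The SIR3 deletion was below the others by more than 1 on the log2 scale, and the SIR4 deletion was the highest. The next gene inward, YAR066W, ran the same order, at 5.18, 4.58, 4.11 and 6.14 in wild type and then in the deletions. Its level in the SIR3 deletion is below background, which leaves a decrease of at least 0.79 there, under the limit. The probe set of YAR066W can match several sequences, so these levels cannot be placed at I-R. The outermost gene of the arm, PHO11, which encodes an acid phosphatase, differed by -0.15, -0.04 and -0.15. YBR298C-A was at 4.31 in wild type, barely above background, and below background in every deletion, so its difference of -1.30 in the SIR3 deletion has no measured size.

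The differences were most positive at place 1, with no even decline inward. Place counts measured genes only, and 6 of the 96 genes are the outermost protein-coding gene of their arm in the reference table. YLR462W at place 1 is the 4th such gene of its arm there, and YDR541C and YML131W at place 1 are the 3rd of theirs. At place 1 stood 17 of the 96 genes, and their median differences were 0.54, 0.25 and 0.66 in the deletions. All 3 differences were positive in 11 of the 17. For the 15 of them that were not higher in all 3 deletions the medians were 0.43, 0.25 and 0.34. The 22 genes at places 2 and 3 had medians of 0.05, 0.10 and 0.21, the 36 at places 4 to 8 had 0.25, 0.15 and 0.17, and the 21 at places 9 to 15 had -0.02, -0.07 and -0.02. Of the 39 genes at places 1 to 3, 7 were called higher in at least 1 deletion and 2 lower. At places 4 to 8 these counts were 3 and 2 of 36 genes. The 21 genes at places 9 to 15 had 0 and 1. Over all 5449 measured genes the counts were 95 and 116. Called in at least 1 deletion were 23.1%, 13.9% and 4.76% of the unnamed genes at these places, against 3.85% of all measured genes. Of the named genes at the same places 15.8%, 6.45% and 7.39% were called.

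**Figure D4:**
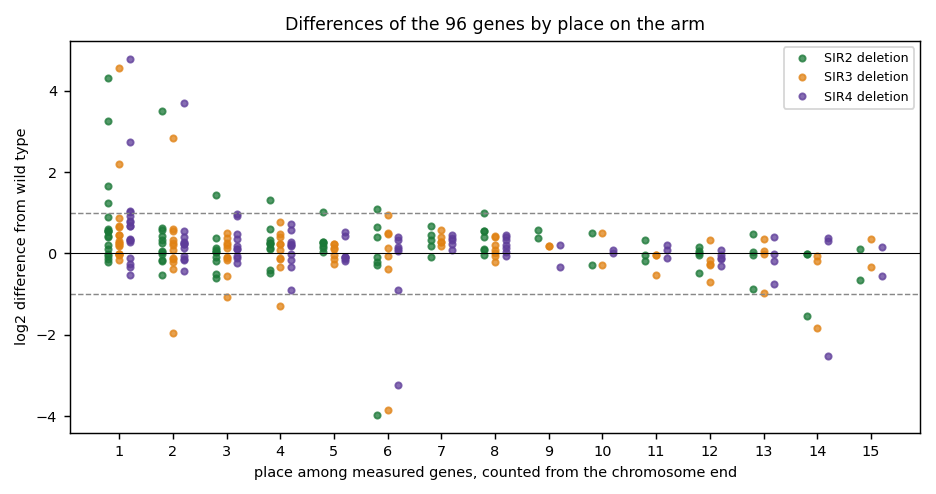
Log2 differences from wild type of the 96 genes in the 3 deletions are plotted against place counted from the chromosome end, 1 point per gene and deletion. Dashed lines mark the 2-fold limit. From place 7 on no point lies above the upper line.

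Among the genes at place 1 that were not called, several had positive differences in all 3 deletions. YIR042C of IX-R was at 8.01 in wild type and at 8.55, 8.68 and 8.80 in the deletions. YHL048C-A of VIII-L was at 6.04 and at 6.65, 6.69 and 6.82, with differences of 0.61, 0.65 and 0.78. In 3 of the 17 all differences were negative. YLR462W of XII-R, at 4.68 on the wild-type array, had -0.20 in the SIR2 and -0.17 in the SIR3 deletion. It was below background in the SIR4 deletion, with a bound of -0.40. Its probe set can match several sequences, so these levels cannot be placed at XII-R. Other genes at place 1 had differences of both signs. YKL222C, which encodes a putative zinc cluster transcription factor on XI-L, had 0.12, -0.04 and 0.32, and YKR104W, part of a split ABC transporter gene on XI-R, had -0.07, -0.01 and 0.34. Arms with many unnamed genes differed in their range. The 6 such genes of XV-L all had a positive mean difference, from 0.23 to 0.87, where the highest, YOL166W-A, is below background, while the 7 of XIV-R lay between -0.14 and 0.37 and the 6 of VIII-R between -0.18 and 0.57. The 6 of II-L ran from -1.97 to 0.31, with YBL100W-A and YBL100W-B lowest. At the inner edge of the choice, YBR287W and YDR524W-C at place 15 had 0.10, 0.36 and 0.16 and -0.66, -0.33 and -0.57, and YDR524C-B at place 16 had -0.03, -0.03 and -0.01. YOR387C, at place 6 of XV-R, was at 5.26 in wild type and at 4.98, 4.87 and 4.37, below wild type in every deletion without reaching the limit. Of the 96 genes, 86 were never called higher, of which 72 had a wild-type level above background.

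The Y' elements are repeats beside the telomere that many ends share. Of 46 listed reading frames in or beside Y' elements 12 were measured, and all 12 are among the 96. Of these 12, YER188C-A alone was called, or 8.33%, and 1 gene cannot be set apart from the 3.85% of all measured genes. It has its own probe set, while the 9 genes with probe sets shared between sequences were not called. The medians of the 12 were 0.10, 0.23 and 0.20 in the deletions, against 0.00, -0.01 and 0.03 over all measured genes. YBL113C, a helicase-like reading frame of II-L, was at 12.06 in wild type and at 12.47, 12.31 and 12.34. Its probe set can match several sequences, so these levels cannot be placed at II-L. YEL075C, with the lowest mean difference of the list, lay below background on all 4 arrays. YFL068W, the outermost gene of VI-L, had its own probe set, at 8.45 in wild type and at 8.67, 8.91 and 9.12.

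Of 7 genes on the list of putative enzymes 0 were called, where 3.85% of all measured genes were, so that a count of 0 is near the background share. Their medians were 0.12, -0.07 and 0.14. YHR210C, a putative aldose epimerase gene of VIII-R, was at 6.17 in wild type and at 6.84, 6.76 and 6.63 in the deletions, and YNR071C, its relative on XIV-R, had differences of 0.03, -0.14 and 0.42. YJR149W had 0.99 in the SIR2 deletion and 0.07 and 0.20 in the others. YJR154W lay below background on all 4 arrays. Of 3 transporter and channel genes YOL162W alone was called, against 3.85% of all measured genes. With 3 genes, 1 call cannot be set apart from that share. YLL053C, part of the split aquaporin gene AQY2 in this strain background, had -0.19, -0.52 and -0.11, and the adjoining AQY2 probe set had -0.48, -0.47 and -0.30. The zinc cluster genes YKL222C and YLL054C were not called, a count near the background share, and YLL054C had -0.28, -0.29 and 0.09. YHL042W, a relative of the COS genes, differed by 0.19, 0.10 and -0.08.

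The 96 genes differ from the genes around them in other ways that the choice did not use. Their median length in the reference table was 528 bases, against 1302 for the 384 named genes at the same 15 places per arm. For the 403 unnamed genes elsewhere it was 771. Shorter than 300 bases were 25% of the 96, against 1.82% of the named outermost genes and 24.8% of the unnamed genes elsewhere. Below background on all 4 arrays were 13 of the 96, or 13.5%, against 2.60% of the named outermost genes and 8.44% of 403 unnamed genes elsewhere. Probe sets shared between sequences served 19 of the 96, or 19.8%, against 9.90% and 4.96%. At places 1 to 3 the shares were close, at 38.5% of the unnamed and 36.8% of the named genes. Above background on all 4 arrays were 74, and 9 lay above it on some arrays.

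Beside the named outermost genes, the shift of the 96 genes was small but positive in each deletion. Their medians were 0.14, 0.12 and 0.17 in the deletions. The named outermost genes had 0.04, 0.00 and 0.05, the unnamed genes elsewhere 0.05, 0.00 and 0.06, and the 4566 named genes elsewhere -0.01, -0.01 and 0.02. Positive in all 3 deletions were 39 of the 96, or 40.6%, against 24.8% of all measured genes, and negative in all 3 were 15, or 15.6%, against 20.9%. Among the named outermost genes 6, or 1.56%, were higher in all 3 deletions and 7, or 1.82%, were lower in all 3. The groups also differ in place, since 39 of the 96 but 57 of the 384 named genes stood at places 1 to 3. At those places the named genes had medians of 0.13, 0.02 and 0.19, with 5.26% higher in all 3 deletions, and the unnamed genes 0.21, 0.20 and 0.28, with 7.69%. At place 1 the shares higher in all 3 were 13.3% of 15 named and 11.8% of 17 unnamed genes. These groups were not tested against each other. Dim and short genes, which are more frequent among the 96 than among the named outermost genes, move with the grouping. The part of place, signal level and gene length was not tested, and the 72 genes of at least 300 bases had medians of 0.11, 0.08 and 0.17.

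**Figure D5:**
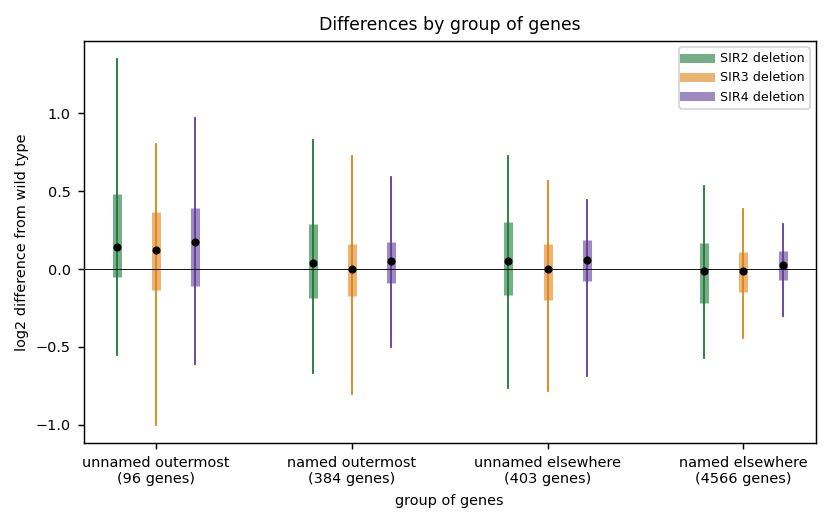
Log2 differences from wild type in the 3 deletions are summarised over 4 groups of genes. Black points are medians, thick bars run from the 25th to the 75th percentile of genes and thin lines from the 5th to the 95th; they show the spread over genes and not over replicates. The 96 unnamed outermost genes have the highest median and the widest thick bar in each deletion.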

How the data were processed

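RNA of 4 strains was measured on 1 Affymetrix array each. Samples were grouped by the labels' strain names. The authors deposited a log2 level for each probe set, computed by RMA according to the submitters' processing notes. No version or setting of RMA is given in the sources used here. RMA normalizes the arrays to a common distribution, so a shift of all genes together would not be seen. Levels of different probe sets were compared only to choose the brightest probe set of a gene and to judge a level against background.

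Of 10928 probe sets, the platform annotation gave 7244 a single symbol, 1 several and 3683 none. A match of gene identifiers with the R64 table of RefSeq gave 5498 probe sets for 5449 Saccharomyces cerevisiae genes, and 1746 belonged to another yeast. The 47 genes with several probe sets, 3 of the 96 among them, were represented by the brightest. Symbols came from the R64 table, and number ties were ordered by suffix. The reference table lists 40 further unnamed protein-coding genes on the same stretches, which are not analysed here.

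The members and lists were chosen with earlier results of these data known, and the lists came from general knowledge of the genes. The named genes were those called in at least 1 deletion, the 6 highest and 6 lowest mean differences, the genes nearest the limit and the extremes of each list. Other genes of the 96 and neighbours were named after their values were seen. A list of IMD fragments had no measured gene. A promoter motif search was not run. The calling code was run on simulated data with less noise than these arrays and shifts set above the limit. That run checks the code and not the calls from single arrays. The work used pandas 2.3.3 and numpy 2.4.6 in Python 3.11.15. Alternatives covered the limit, scaling, background, probe sets, place and symbols. One, without the Ty genes, was added after seeing the data.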

Additional observations from a re-analysis of the deposited data

Results flagged for a closer look

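In 3 of the 96 genes the deletions moved to opposite sides of wild type and differed from each other by at least 2-fold. YAR068W was lower in the SIR3 deletion and higher in the SIR4 deletion, and SIR4 minus SIR3 was 2.38 on the log2 scale. Its neighbour YAR066W had 2.03 for SIR4 minus SIR3, but it was below background in the SIR3 deletion, so that the difference is at least 1.75. Its SIR2 minus SIR4 was -1.56, and its probe set can match several sequences. YOL162W was above wild type in the SIR2 deletion and below it in the SIR3 deletion, with 1.27 for SIR2 minus SIR3. With 1 array per strain these differences between deletions were not tested.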

How the results depend on the processing

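The count of genes higher in all 3 deletions was 3 under each scaling, background, probe set, symbol and place alternative and at a 3-fold limit, 4 with the SIR3 deletion set aside and 6 at a 1.5-fold limit. The count of 2 lower in all 3 became 1 at a 3-fold limit, without shared probe sets, with 10 genes per arm, within 20 kb of an end and without the Ty genes, and 4 with 20 genes per arm. In the SIR2 deletion, 9 higher became 16 at 1.5-fold and 4 at 3-fold, and 2 lower became 5 at 1.5-fold, 4 with 20 genes per arm and 1 under the same 5 alternatives. In the SIR3 deletion, 3 higher became 10 at 1.5-fold, and 5 lower became 3 at 3-fold, with values raised to background and without shared probe sets. In the SIR4 deletion, 5 higher became 13 at 1.5-fold and 3 at 3-fold, and 2 lower became 5 at 1.5-fold, 4 with 20 genes per arm and 1 without shared probe sets, with 10 genes per arm, within 20 kb and without the Ty genes. The median in the SIR2 deletion became 0.251 with 10 genes per arm and 0.247 within 20 kb, and that in the SIR4 deletion 0.274 within 20 kb. All medians stayed positive, from 0.08 to 0.27. With values raised to background YAR066W and YBR298C-A, both below background in the SIR3 deletion, lost their calls there. The other changes listed so far follow from the limit or from which genes or deletions were counted. Smaller changes of counts came from background, scaling and probe sets. The 9 higher in the SIR2 deletion became 7 with values raised to background, where YGL258W-A and YOL166W-A lost their calls. They became 10 with median-centred arrays or repeated quantile normalization. In the SIR4 deletion 5 higher became 6 with repeated quantile normalization and 4 with probe sets averaged. The 5 lower in the SIR3 deletion became 4 with repeated quantile normalization. No paired analysis was possible because each strain has 1 array. Signal near background limits the differences of dim genes.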
